A study of Mus musculus with 24 samples.

Results

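The 9 interferon-stimulated genes described here were Rtp4, Ifit1, Ifit3, Isg15, Oasl2, Bst2, Stat2, Irf9 and Irf7. They were taken by gene symbol from an expression table of 22667 genes, and all 9 were found and had counts. The list was chosen by the level of Rtp4 in mature neurons, which was high in slow/slow and low in WT cells, so the neuron values of the 9 genes are given as a description with no test. Poly(A)+ RNA had been sequenced from mouse E14-derived embryonic stem cells (ESCs, kept in 2i medium), from neural progenitor cells (NPCs) at day 7 of monolayer differentiation, from PSA-NCAM+ cells, which carry polysialic acid on an adhesion protein and were taken out with beads at day 10, and from mature neurons, replated at day 7 and kept for 14 more days. At each stage WT cells (wt/wt) were set against slow/slow cells, which carry the R749H substitution on both alleles of Polr2a, the gene of the largest subunit of RNA polymerase II (RNAPII), with 3 replicates in each of the 8 groups and 24 samples in all. The substitution slows elongation by RNAPII. The slow/slow cells came from gene targeting of a single ESC line and were plated for differentiation at 30000 cells per cm2, against 10000 for WT cells, so genotype, clonal history and plating density cannot be told apart.

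Interferons are secreted when a cell senses viral or misplaced nucleic acid. Type I interferons bind a receptor made of Ifnar1 and Ifnar2, the kinases Jak1 and Tyk2 then act on Stat2, which joins Irf9 in a complex that binds the interferon-stimulated response element (ISRE) in the promoters of its target genes. Pluripotent stem cells are known for a weak interferon response, which develops as cells differentiate.

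Of the 9 genes, 8 had at least 1 promoter in the RefSeq promoter table (250 bases before to 50 bases after the start, build GRCm38.p6), and Rtp4 was not matched. The core of the response element, searched as GAAANNGAAA on both strands with overlapping matches kept, occurred in 5 of the 8, against 3.44% of all 32851 promoters. These 5 stretches are shown because the response element is what such genes share in the textbook account, with the matched letters in capitals and 10 bases on either side.
Isg15 (chr4:156200865-156200906, minus strand): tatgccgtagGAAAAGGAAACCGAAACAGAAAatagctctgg
Bst2 (chr8:71537577-71537612, minus strand): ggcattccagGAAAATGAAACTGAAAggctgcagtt
Stat2 (chr10:128270266-128270295, plus strand): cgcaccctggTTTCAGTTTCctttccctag
Ifit3 (chr19:34583363-34583426, plus strand): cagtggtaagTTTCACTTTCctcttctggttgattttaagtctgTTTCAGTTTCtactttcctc
Ifit1 (chr19:34640775-34640823, plus strand): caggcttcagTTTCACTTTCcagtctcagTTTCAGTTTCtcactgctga
All are written along the strand of the gene, so a run of TTTC is the element read on the other strand. Isg15 held 3 overlapping matches between 78 and 57 bases upstream of its start, and Bst2 held 2 between 130 and 115 bases upstream. Ifit1 and Ifit3 held 2 separate matches each, and Stat2 held 1. The windows of Oasl2, Irf7 and Irf9 did not hold these letters. A second motif, TTCNNNGAA, which reads the same on both strands and is the core of the gamma-activated site, occurred in the Bst2 promoter alone among the 8, against 8.3% of all promoters.

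Libraries held between 32974432 and 104466886 counts, and no pair held identical values. Levels are given as CPM (counts per 1000000 library counts) scaled by the trimmed mean of M values (TMM). Neuron markers summed to 2560 to 2756 CPM in WT neurons and 2290 to 2454 CPM in slow/slow neurons, far above every other group. The sums rested mainly on Dcx and Tubb3, and 4 of 6 neuron markers fell in slow/slow neurons, where 28.4% of all genes fell. The 4 were Syn1 (221 to 60.3 CPM), Snap25 (208 to 60.2), Syt1 (173 to 58.7) and Rbfox3 (36.6 to 19.7). The neuron markers were low before that stage. In WT PSA-NCAM+ cells they summed to 24.5 to 40.4 CPM, below the 45.5 to 57.8 CPM of WT ESCs, and slow/slow PSA-NCAM+ cells had 74.9 to 260 CPM. A point mutation leaves no trace in gene counts, so the genotype labels could not be checked from them. At the PSA-NCAM+ stage replicate 1 of both genotypes stood apart from replicates 2 and 3. There 7 of the 9 genes were over 1 higher on the log2 scale in replicate 1 than in the mean of the other two, in each genotype, against 4.45% of all genes tested in WT cells and 8.38% in slow/slow cells. Results at that stage are therefore given with and without both libraries.

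In neurons, the antiviral effectors other than Bst2 were scarce in WT cells, at 0.414 CPM or less, and clearly present in slow/slow cells. Bst2 had 5.28 to 6.08 CPM in WT neurons. Rtp4, a receptor-transporter protein, had 3, 2 and 7 counts in the 3 WT libraries (0.0460, 0.0321 and 0.0674 CPM) and 774, 935 and 554 counts in the slow/slow libraries (11.5, 11.6 and 15.2 CPM). Its log2 change was 7.91 (SE 1.12). Pooled over replicates the ratio of slow/slow to WT was 237, with an exact 95% counting interval from 136 to 460. No slow/slow library came near any WT library.

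Ifit1, whose protein binds the ends of foreign RNA, had 0.0460, 0.128 and 0.125 CPM in WT neurons and 9.55, 8.74 and 12.3 CPM in slow/slow neurons. Its log2 change was 6.61 (SE 1.31), and its pooled ratio was 94.0, with a counting interval from 62.9 to 147. Ifit3, a related protein that works with Ifit1, was the weakest of the effectors, with 3, 3 and 9 counts in WT libraries and 65, 67 and 44 in slow/slow libraries. Its log2 change was 3.93 (SE 1.07), and its pooled ratio was 14.8 (8.71 to 26.9). The 2 genes thus shared a direction at very different depths of counting.

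Isg15, a ubiquitin-like protein that is joined to other proteins after interferon, had 0.307, 0.273 and 0.202 CPM in WT neurons. In slow/slow neurons it had 11.1, 11.0 and 15.7 CPM, a log2 change of 5.61 (SE 1.05). Oasl2, of the oligoadenylate synthetase-like family, had 0.322, 0.273 and 0.414 CPM in WT neurons and 20.5, 20.3 and 29.7 CPM in slow/slow neurons, a log2 change of 6.09 (SE 0.73). In both genes the third slow/slow library was the highest, and the groups lay far apart.

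Bst2, or tetherin, which holds budding virus particles on the cell surface, was well counted in every library. It had 5.28, 6.08 and 5.44 CPM in WT neurons and 96.2, 92.7 and 127 CPM in slow/slow neurons, a log2 change of 4.23 (SE 0.22). Bst2 lies on chromosome 8, where the median gene was 0.44 higher in slow/slow neurons on the log2 scale, against -0.06 over all genes. The median of chromosome 8 was 0.45, 0.49 and 0.46 in ESCs, NPCs and PSA-NCAM+ cells. Chromosome 15, which holds none of the 9 genes, had medians of -0.60, -0.57 and -0.56 at those stages and -0.08 in neurons, so the earlier stages and the neurons also differed in this respect. The part of these shifts in any gene was not tested.

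The transcription factors of the response differed by less. Irf7, which drives the type I interferon genes themselves, had 0.292, 0.369 and 0.520 CPM in WT neurons and 5.18, 4.99 and 4.99 CPM in slow/slow neurons, a log2 change of 3.65 (SE 0.70). Irf9, the DNA-binding part of the response complex, had 14.1, 11.9 and 13.5 CPM in WT neurons and 47.7, 47.3 and 54.6 CPM in slow/slow neurons, a log2 change of 1.92 (SE 0.30). Both kept the groups apart.

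Stat2, the partner of Irf9, had 48.1, 40.4 and 44.4 CPM in WT neurons and 58.0, 56.3 and 56.8 CPM in slow/slow neurons. Its log2 change was 0.37 (SE 0.19), the smallest of the 9, although its groups did not overlap either. Across all 9 genes every slow/slow neuron library was above every WT neuron library. The share of all genes that separate in this way was not counted, and the neuron stage chose the list, so this is a description only. Ranked by log2 change among the 16627 genes, Rtp4 was number 16, Ifit1 26, Oasl2 41, Isg15 58, Bst2 159, Ifit3 204, Irf7 246, Irf9 971 and Stat2 4508.

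**Figure D1:**
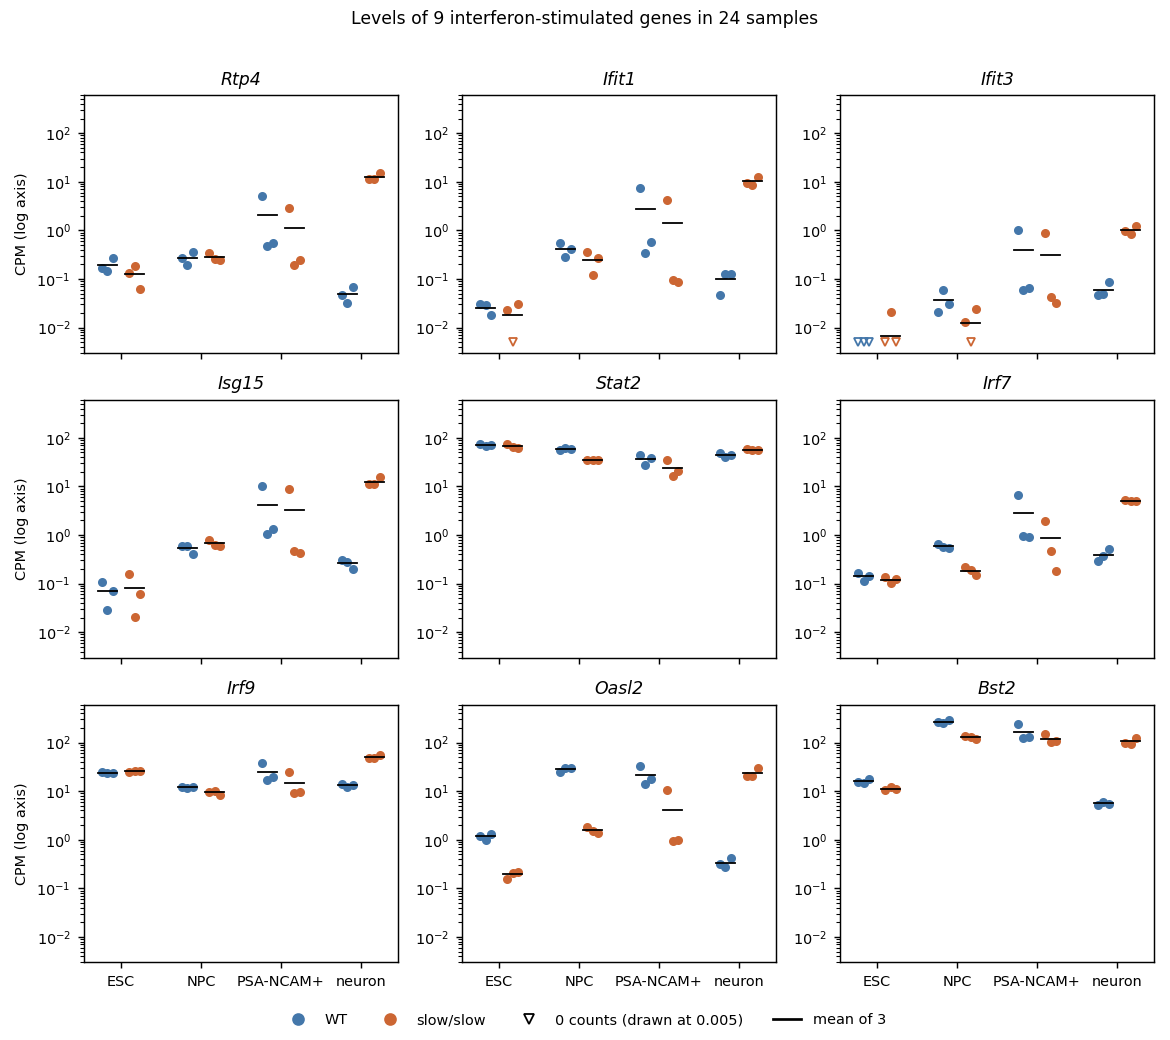
CPM (log axis) of each of the 9 genes in the 24 samples, with WT in blue, slow/slow in orange, the mean of 3 replicates as a black bar, and samples with 0 counts as open triangles at 0.005. In neurons every slow/slow sample lies above every WT sample, while Oasl2 and Bst2 lie lower in slow/slow NPCs and replicate 1 of the PSA-NCAM+ cells stands above replicates 2 and 3 for most genes.

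Per length, by the authors' mean RPKM, the effectors did not reach the same abundance. In slow/slow neurons Bst2 had a mean of 162 RPKM, followed by Isg15 at 19.7, Irf9 at 19.6, Stat2 at 15.3, Rtp4 at 9.19, Oasl2 at 8.40, Ifit1 at 4.88, Ifit3 at 3.56 and Irf7 at 2.97. In WT neurons Stat2 led with 10.8 RPKM, Bst2 had 7.82 and Irf9 4.70, and the other 6 were at or under 0.37 RPKM. Stat2 and Irf9 were thus present in all groups, while most of the effectors were scarce in most groups.

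The order of the 8 groups differed among the genes. For Rtp4, slow/slow neurons (12.8 CPM ± 2.08, SD, n = 3) stood above all other groups, followed by WT PSA-NCAM+ cells (2.08 ± 2.71) and slow/slow PSA-NCAM+ cells (1.11 ± 1.55), whose samples overlapped. The NPC groups of slow/slow (0.286 ± 0.0554) and WT cells (0.276 ± 0.0820) overlapped each other and the WT ESCs (0.193 ± 0.0670), which overlapped slow/slow ESCs (0.127 ± 0.0615). WT neurons had the lowest mean (0.0485 ± 0.0178) and overlapped slow/slow ESCs.

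For Ifit1, slow/slow neurons (10.2 CPM ± 1.89) stood above all other groups. WT (2.78 ± 4.02) and slow/slow PSA-NCAM+ cells (1.44 ± 2.34) and WT (0.416 ± 0.127) and slow/slow NPCs (0.251 ± 0.123) followed, each overlapping the next group. WT neurons (0.0999 ± 0.0466) came next, above ESCs of both genotypes, which had at most 2 counts a library. Ifit3 had the same 3 leading groups, with 1.003 ± 0.188, 0.388 ± 0.565 and 0.318 ± 0.485 CPM, all overlapping through replicate 1 of the PSA-NCAM+ cells, and never more than 9 counts in any library of the other 5 groups. It was at 0 in all WT ESC libraries.

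For Isg15, slow/slow neurons (12.6 CPM ± 2.64) led WT (4.22 ± 5.29) and slow/slow PSA-NCAM+ cells (3.31 ± 4.95), and both NPC groups (0.671 ± 0.114 in slow/slow and 0.532 ± 0.111 in WT cells) overlapped. WT neurons (0.261 ± 0.0535) and ESCs (0.0802 ± 0.0707 in slow/slow and 0.0690 ± 0.0389 in WT cells) were lowest. Irf7 ran in a similar order, from 5.05 ± 0.112 CPM in slow/slow neurons through 2.83 ± 3.32 in WT and 0.862 ± 0.928 in slow/slow PSA-NCAM+ cells to 0.121 ± 0.0169 in slow/slow ESCs. Its highest PSA-NCAM+ library, replicate 1 of WT, overlapped the slow/slow neurons.

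Oasl2 and Bst2 had another order, led by WT NPCs. Oasl2 was at 27.99 CPM ± 2.41 in WT NPCs, and these samples overlapped slow/slow neurons (23.5 ± 5.40), the next group. WT PSA-NCAM+ cells (21.6 ± 10.2) came next and overlapped both, and slow/slow ESCs were lowest (0.193 ± 0.0309). Bst2 was at 269 CPM ± 20.6 in WT NPCs, then at 167 ± 68.0 in WT PSA-NCAM+ cells, 128 ± 8.39 in slow/slow NPCs, 120 ± 25.0 in slow/slow PSA-NCAM+ cells and 105 ± 18.9 in slow/slow neurons, the last 4 overlapping in turn. WT neurons had the lowest Bst2 level of all groups (5.60 ± 0.425).

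Stat2 was highest in ESCs (71.4 CPM ± 2.36 in WT and 66.8 ± 5.81 in slow/slow cells) and lowest in slow/slow PSA-NCAM+ cells (23.8 ± 9.71). Irf9 was highest in slow/slow neurons (49.9 ± 4.08), above both ESC groups (25.9 ± 0.573 in slow/slow and 23.9 ± 0.512 in WT cells) and above WT PSA-NCAM+ cells (25.2 ± 11.7), which overlapped the ESCs. It was lowest in slow/slow NPCs (9.38 ± 0.834).

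The genes were chosen by the neuron stage, although earlier results of these data were known when the members and gene lists were made. The comparisons before that stage were tested by edgeR's quasi-likelihood test, with a Benjamini-Hochberg false discovery rate (FDR) under 0.05 over all 16627 genes as the threshold. Ifit3 is among the 9 tested only because it passed the filter on low counts through slow/slow neurons. In NPCs, 3 of the 9 genes fell in slow/slow cells and 0 rose, where 27.4% of all genes fell and 29.3% rose. At an unadjusted p under 0.05 the counts were also 3 and 0, and DESeq2 called 4 lower and 0 higher. Oasl2 fell most, with 25.2, 29.5 and 29.3 CPM in WT NPCs and 1.84, 1.48 and 1.41 CPM in slow/slow NPCs (log2 change -4.14, SE 0.64, FDR = 2.1e-05). Bst2 had 259, 255 and 293 CPM in WT NPCs and 136, 128 and 119 CPM in slow/slow NPCs (log2 change -1.07, SE 0.19, FDR = 0.00011). The groups were well separated for both.

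Stat2 had 55.8, 62.7 and 60.3 CPM in WT NPCs and 34.95, 35.8 and 35.4 CPM in slow/slow NPCs (log2 change -0.75, SE 0.19, FDR = 0.0021). Irf7 had 0.666, 0.574 and 0.540 CPM against 0.220, 0.191 and 0.148 CPM, which did not overlap but did not pass the test (log2 change -1.62, SE 0.80, FDR = 0.090). Irf9 had 11.96, 11.7 and 12.4 CPM against 9.61, 10.1 and 8.45 CPM and did not pass either (log2 change -0.36, SE 0.29, FDR = 0.31). Rtp4 (0.276 and 0.286 CPM on average) and Isg15 (0.532 and 0.671 CPM) differed little between WT and slow/slow NPCs, with FDR = 0.95 and 0.77, and Ifit1 had FDR = 0.68. Ifit3 had at most 4 counts in an NPC library, too few for a fold. The genes with the largest differences in neurons were thus mostly low in NPCs of either genotype.

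In ESCs 1 of the 9 genes fell and 0 rose, where 21.9% of all genes fell and 18.5% rose. At an unadjusted p under 0.05, 2 fell and 0 rose, and DESeq2 also called 2 lower and 0 higher. The gene was Oasl2, with 80, 35 and 73 counts in WT ESCs and 7, 10 and 7 counts in slow/slow ESCs (log2 change -2.62, SE 0.86, FDR = 0.019). Without replicate 1 or 2 of the slow/slow ESCs its FDR was 0.066 and 0.059, with log2 changes of -2.47 and -2.66. Bst2 had 15.5, 14.7 and 17.8 CPM against 10.3, 12.3 and 11.2 CPM and did not pass (log2 change -0.51, SE 0.20, FDR = 0.053). Rtp4, Isg15 and Irf7 had at most 15 counts in an ESC library and did not pass (FDR = 0.76, 0.99 and 0.87). Their pooled ratios of slow/slow to WT had counting intervals from 0.355 to 1.27, 0.402 to 2.62 and 0.394 to 1.63. Ifit1 had at most 2 counts in an ESC library, too few for a fold.

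In PSA-NCAM+ cells 5 of the 9 genes fell in slow/slow cells and 0 rose, where 28.1% of all genes fell and 28.6% rose. At an unadjusted p under 0.05, and by DESeq2, which gave no adjusted p for Rtp4 and Isg15, the counts were also 5 and 0. They were Oasl2 (log2 change -2.42, SE 0.59, FDR = 0.0016), Irf7 (-1.81, SE 0.65, FDR = 0.023), Irf9 (-0.79, SE 0.29, FDR = 0.025), Stat2 (-0.63, SE 0.19, FDR = 0.0081) and Bst2 (-0.49, SE 0.19, FDR = 0.037). Leaving out 1 library at a time moved this count between 1 and 9. It was 1, with Oasl2 alone remaining, without replicate 1 of the WT cells, or without replicate 2 or 3 of the slow/slow cells, and 9 without replicate 1 of the slow/slow cells. When only the 6 PSA-NCAM+ libraries were fitted, 0 of the 8 members then tested passed.

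Replicate 1 carried most of this spread. Rtp4 had 5.21 CPM in replicate 1 of the WT PSA-NCAM+ cells and 0.467 and 0.554 CPM in replicates 2 and 3, and it had 2.90, 0.192 and 0.240 CPM in the slow/slow libraries. Ifit1 had 7.42, 0.350 and 0.570 CPM in the WT libraries, against 4.14, 0.0960 and 0.0873 CPM. Isg15 had 10.3, 1.03 and 1.30 CPM in the WT libraries, against 9.02, 0.469 and 0.437 CPM. In all 3 genes replicate 1 of the slow/slow cells was above replicates 2 and 3 of the WT cells.

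Oasl2 had 33.2, 14.0 and 17.5 CPM in the WT PSA-NCAM+ libraries, against 10.5, 0.960 and 0.994 CPM. Its groups did not overlap. With both replicate 1 libraries left out, an alternative chosen after the data had been seen, 8 of the 9 genes fell and 0 rose, including Rtp4 (log2 change -1.24, FDR = 0.0016), Ifit1 (-2.32, FDR = 8.0e-05) and Isg15 (-1.37, FDR = 0.00013), while Ifit3 did not pass (-0.69, FDR = 0.41). At this stage the replicate 1 libraries of both genotypes deviated together (r = 0.54, against -0.44 at most with another number). The match was less distinct for replicate 2 (0.455 against 0.399) and replicate 3 (0.401 against 0.241). A fit with the replicate number as a block also called 5 lower and 0 higher.

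**Figure D2:**
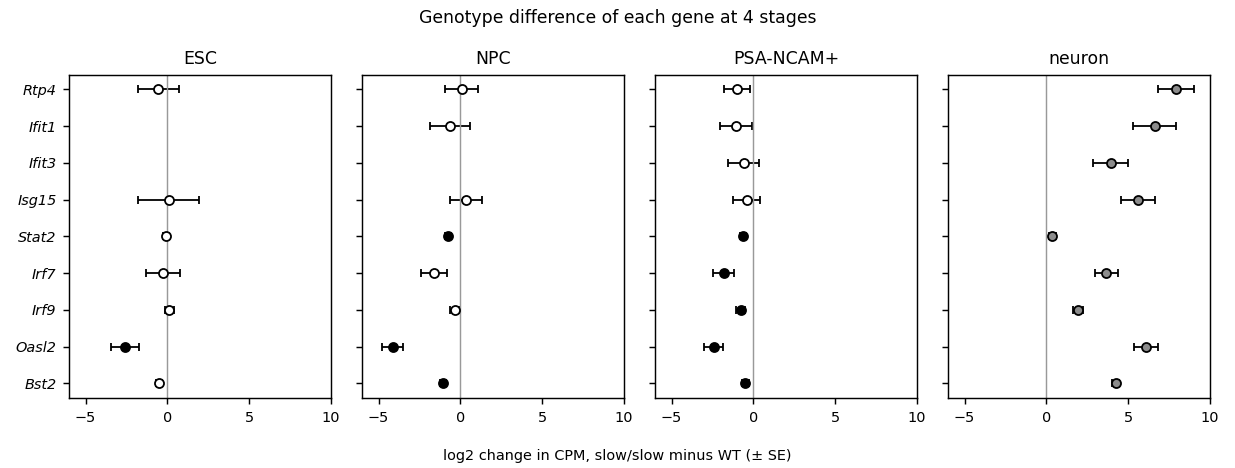
log2 change in CPM (slow/slow minus WT, with SE) of the 9 genes at the 4 stages. Filled black points passed the FDR and open points did not, grey points are the untested neuron values, and genes with at most 3 pooled counts in a genotype are left out. The points lie at or below 0 in most comparisons before the neuron stage and above 0 for all 9 genes in neurons.

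The steps of differentiation before the neuron stage were tested in each genotype. From ESCs to NPCs, 4 of the 9 were called in WT cells (3 higher, 1 lower) and 4 in slow/slow cells (2 higher, 2 lower), where 65.6% and 62.3% of all genes were called. Bst2 rose by a log2 change of 4.07 (SE 0.22, FDR = 4.1e-12) in WT and 3.501 (SE 0.22, FDR = 2.4e-11) in slow/slow cells. Oasl2 rose by 4.56 (SE 0.66, FDR = 5.0e-06) in WT and 3.04 (SE 0.84, FDR = 0.0037) in slow/slow cells. Irf7 rose in WT cells (2.01, SE 0.83, FDR = 0.040), Irf9 fell in WT (-0.99, SE 0.29, FDR = 0.0054) and slow/slow cells (-1.46, SE 0.30, FDR = 0.00024), and Stat2 fell in slow/slow cells (-0.92, SE 0.19, FDR = 0.00028).

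From ESCs to PSA-NCAM+ cells, 8 of the 9 were called in WT cells (7 higher, 1 lower) and all 9 in slow/slow cells (7 higher, 2 lower), where 71.2% and 73.4% of all genes were called. The 7 were the 6 effectors and Irf7, and Stat2 was lower in both. Ifit3 is among them although it passed the filter on low counts through slow/slow neurons alone. It had 0 counts in every WT ESC library against 90, 3 and 4 in the WT PSA-NCAM+ libraries, so its calls carry little weight. With both replicate 1 libraries left out the counts were 9 in WT (7 higher, 2 lower) and 7 in slow/slow cells (5 higher, 2 lower), Rtp4 and Ifit3 being lost in slow/slow cells. Without replicate 1 of the slow/slow PSA-NCAM+ cells alone, 5 remained.

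Whether genotype changed these steps was tested as an interaction. None of the 9 genes passed between ESCs and NPCs, or between ESCs and PSA-NCAM+ cells, by edgeR, where 24.6% and 27.1% of all genes passed. At an unadjusted p under 0.05, 1 gene was found at each step, Stat2 for NPCs and Irf9 for PSA-NCAM+ cells, and DESeq2 also called 0 at both. The 0 at the NPC step depended on the fit. Several members passed there when only the samples compared were fitted, and 1 passed with the replicate number as a block, as listed in the last section. With both replicate 1 libraries left out 3 genes passed at the PSA-NCAM+ step, namely Irf9, Oasl2 and Stat2. Without replicate 1 of the slow/slow cells alone the count was also 3.

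The remaining genes of the pathway were examined through lists of ligands, receptors, signalling genes, nucleic acid sensors, other interferon-stimulated genes and antigen presentation genes, 150 genes in all, of which 117 were tested. In neurons 76 of the 117 rose in slow/slow cells (65.0%) and 12 fell (10.3%), against 23.4% and 28.4% of all genes, and the median log2 change was 1.22, against -0.06 over all genes. These lists were chosen with the neuron results known, so the neuron counts and FDRs describe the lists and are not independent evidence of their direction. The other interferon-stimulated genes carried most of it, with 48 of 62 higher, 2 lower and a median of 2.97. Nucleic acid sensors had 13 of 21 higher and 4 lower, signalling genes 7 of 15 higher and 4 lower, and antigen presentation genes 6 of 13 higher and 0 lower. The receptors were split, with 2 of 6 higher and 2 lower.

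Usp18, which removes Isg15 from proteins and restrains the receptor, had the largest rise by fitted log2 change, from 0.414, 0.754 and 0.741 CPM in WT neurons to 40.9, 40.2 and 64.1 CPM in slow/slow neurons (log2 change 6.23, SE 1.01, FDR = 3.3e-05). Sp100, a nuclear body protein, had 4 counts over all WT neuron libraries and 247 over the slow/slow ones, a ratio of 77.7 with a counting interval from 29.95 to 287. Oas1b, an oligoadenylate synthetase-family gene, had 0.230, 0.209 and 0.231 CPM against 10.0, 9.19 and 11.95 CPM (log2 change 5.52, SE 0.59, FDR = 2.4e-07). Mx2, a dynamin-like antiviral GTPase, rose from a mean of 0.185 to 7.59 CPM (log2 change 5.34, SE 1.01, FDR = 0.00017). Ddx60, a helicase, had 10 counts against 312, a ratio of 39.2 (21.1 to 82.6).

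Tyk2 rose (log2 change 0.68, FDR = 1.7e-05), whereas Jak1, the other kinase of the receptor, fell (-0.61, FDR = 1.2e-06). Socs1, an inhibitor of these kinases, rose from 2.13 to 3.44 CPM (log2 change 0.69, FDR = 0.048).

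The type I receptor itself was expressed at every stage, with mean levels of Ifnar1 from 41.1 CPM in WT ESCs to 121 CPM in WT neurons. In neurons Ifnar1 fell from 121 ± 2.25 to 103 ± 2.37 CPM (n = 3, log2 change -0.24, FDR = 0.0010), while Ifnar2 had 11.2 and 16.1 CPM and did not pass (log2 change 0.53, FDR = 0.073). Of the type II receptor, Ifngr2 fell (log2 change -0.69, FDR = 0.00065) and Ifngr1 had 12.6 and 12.2 CPM (FDR = 0.63). Of the type III receptor, Il28ra (2.11, FDR = 0.00035) and Il10rb (0.81, FDR = 0.023) rose.

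The other falls in neurons were led by Ifitm1, a membrane protein that blocks virus entry (13.9 to 3.37 CPM, log2 change -2.04, FDR = 1.8e-06). They included Tmem173 (STING, the adaptor of cytosolic DNA sensing, log2 change -1.07, FDR = 0.0033), Ptpn6, a phosphatase (-0.71, FDR = 1.2e-05), and Adar, which edits double-stranded RNA (-0.66, FDR = 5.9e-07). No interferon ligand passed the filter on low counts. Of 21 ligands listed, 19 were in the table, 9 had a count in any library, and the highest count of any ligand in any library was 8. In slow/slow neurons 5 ligands had counts, 23 counts in all over 3 libraries, and in WT neurons 1 ligand had 1 count. At this depth no ligand could be compared between genotypes.

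In NPCs and PSA-NCAM+ cells more pathway genes fell than rose. In NPCs 55 of 117 fell and 12 rose (47.0% and 10.3%, against 27.4% and 29.3% of all genes), with a median log2 change of -0.72 against 0.01. The largest falls were those of Oas1g (100 counts against 3, a ratio of 29.4 of WT to slow/slow with a counting interval from 9.78 to 145), Iigp1 (16 counts against 1, a ratio of 14.1 from 2.19 to 592), Trim30a (log2 change -3.36, FDR = 0.0021), Rsad2, which encodes viperin (-3.34, FDR = 0.010), and Oas1a (-3.25, FDR = 6.6e-05). The largest rises were smaller, with Cmpk2 at 0.98, Ifit2 at 0.92, E330016A19Rik at 0.89, H2-T23 at 0.75 and Traf3 at 0.50.

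In PSA-NCAM+ cells 53 of 117 fell and 11 rose (45.3% and 9.40%, against 28.1% and 28.6% of all genes), with a median of -0.48. Without both replicate 1 libraries 78 fell and 11 rose. The largest falls were those of Oas1g (176 counts against 3, a ratio of 69.0 from 23.2 to 338), Oas1a (log2 change -4.12, FDR = 1.7e-06), Slfn2 (-3.22, FDR = 2.9e-07), Lgals9 (-3.10, FDR = 3.2e-05) and Sp100 (-2.72, FDR = 4.4e-05). The largest rises were those of Psmb10, an immunoproteasome subunit (1.09, FDR = 0.00010), Rnaseh2a (0.75), Samhd1 (0.62), Dtx3l (0.57) and Traf3 (0.49). Of the receptors 4 of 6 fell, led by Il10rb (log2 change -1.43, FDR = 0.00024), and Ifnar2 was among them (-0.80, FDR = 0.0082). When only the 6 libraries of this stage were fitted, 26 pathway genes were called in place of 64.

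In ESCs 17 of 117 pathway genes rose and 25 fell (14.5% and 21.4%, against 18.5% and 21.9% of all genes), with a median of -0.10. Of the 62 other interferon-stimulated genes 6 rose and 18 fell (9.68% and 29.0%), with a median of -0.28. The largest falls were those of Ifi27l2a (39 counts against 1, a ratio of 31.3 from 5.29 to 1267), Sp100 (log2 change -3.72, FDR = 1.8e-06), Ciita, the activator of class II antigen presentation (-3.66, FDR = 3.3e-08), Lgals3bp (-3.45, FDR = 0.00042) and Slfn5 (-3.06, FDR = 4.8e-09). The largest rises were those of Phf11 (2.93, FDR = 0.0015), Slfn2 (2.59, FDR = 2.2e-05), Ifit2 (2.32, FDR = 1.9e-05), Ddx58 (RIG-I, a sensor of viral RNA, 1.78, FDR = 0.0024) and Psmb10 (1.54, FDR = 4.7e-06).

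**Figure D3:**
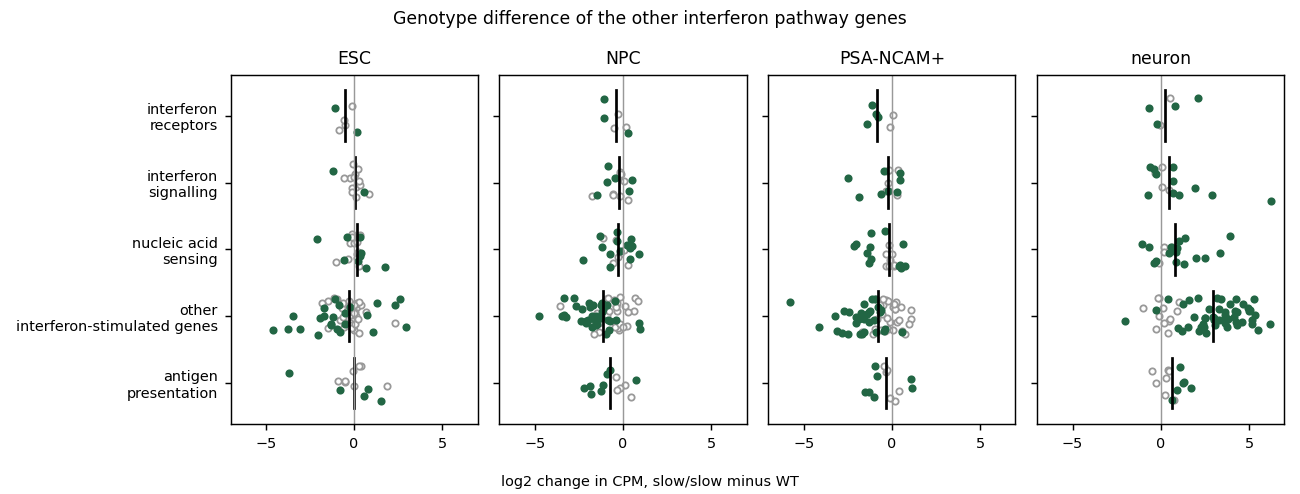
log2 change in CPM (slow/slow minus WT) of the 117 pathway genes tested, by list and stage. Green points passed the FDR, open points did not, and a black line marks the list median. In neurons the other interferon-stimulated genes have a median of 2.97, and in NPCs their median is -1.16.

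Markers of other cell types moved along with these genes. Of all genes tested, 23.4% were called higher and 28.4% lower in slow/slow neurons, and the marker lists are short. All 6 endothelial markers were higher in slow/slow neurons (median log2 change 3.44), and their summed level was 109 to 136 CPM there against 11.5 to 14.4 CPM in WT neurons. Cdh5, a junction protein of vessel walls, went from 2.80 to 70.5 CPM and Cldn5 from 0.190 to 8.58 CPM. Of 7 mesenchymal markers 6 were higher and 1 lower, with summed levels of 610 to 647 CPM against 224 to 282 CPM. No endothelial or mesenchymal marker was at 0 in either group. The 12 microglia and macrophage markers summed to 9.29 to 9.92 CPM against 3.19 to 4.40 CPM, mostly through Csf1r and Tmem119, whereas Aif1, Ptprc, Tyrobp and the C1q genes stayed under 0.16 CPM in every neuron library. Of 6 endoderm markers 5 were higher and 1 lower, among them Afp (0.0212 to 9.60 CPM). Of 5 astrocyte markers 4 were lower and 1 higher, among them Aldoc (88.2 to 9.16 CPM) and Gfap (1.57 to 0.139). Of 5 neural progenitor markers 3 were higher and 0 lower, among them Pax6 (12.3 to 80.8 CPM). The part of any of these cells in the interferon-stimulated genes was not tested. In bulk RNA a changed share of cells and a changed level per cell cannot be told apart.

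At the PSA-NCAM+ stage mesenchymal markers summed to 523 CPM in replicate 1 against 196 and 286 CPM in WT cells, and to 663 CPM against 177 and 147 CPM in slow/slow cells. The sums rested mostly on Col1a1 and Col1a2, which had 242 against 32.5 and 49.45 CPM in WT and 451 against 27.9 and 21.8 in slow/slow cells. Dcn, Lum and Thy1 were lower in replicate 1 in both genotypes. Over the 7 markers the median log2 difference of replicate 1 from replicates 2 and 3 was -0.08 in WT and -0.24 in slow/slow cells. Csf1r had 33.8 CPM in replicate 1 against 3.39 and 5.16 CPM in WT cells, and 26.5 CPM against 0.661 and 0.611 CPM in slow/slow cells. The other markers of its list did not follow it. Itgam was lower in replicate 1, at 0.463 against 1.67 and 1.06 CPM in WT and 0.286 against 2.45 and 2.435 in slow/slow cells. Tmem119 was lower in both genotypes too. Over the 4 microglia and macrophage markers tested, the median log2 difference of replicate 1 from replicates 2 and 3 was -0.37 in WT and -0.03 in slow/slow cells. In NPCs, where Oasl2 and Bst2 were lower in slow/slow cells, endothelial markers summed to 27.97 to 37.4 CPM in slow/slow against 83.0 to 89.5 CPM in WT cells, mostly through Pecam1 (74.7 to 19.3 CPM), while Kdr and Cldn5 rose. Mesenchymal markers summed to 32.1 to 39.2 CPM against 75.03 to 89.4 CPM. In the same cells 4 of 5 pluripotency markers fell, among them Esrrb (478 to 93.1 CPM) and Nanog (384 to 128). There 5 of 6 neuron markers rose, and 4 of 5 neural progenitor markers rose, among them Pax6 (4.30 to 40.9 CPM). Of all genes 27.4% fell and 29.3% rose in slow/slow NPCs. Pecam1 was at 126 CPM in ESCs of both genotypes, where Emcn was at 0. The endothelial sum was 136.5 to 141 CPM in WT and 132 to 135 CPM in slow/slow ESCs. The part of these markers in the differences was not tested either.

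**Figure D4:**
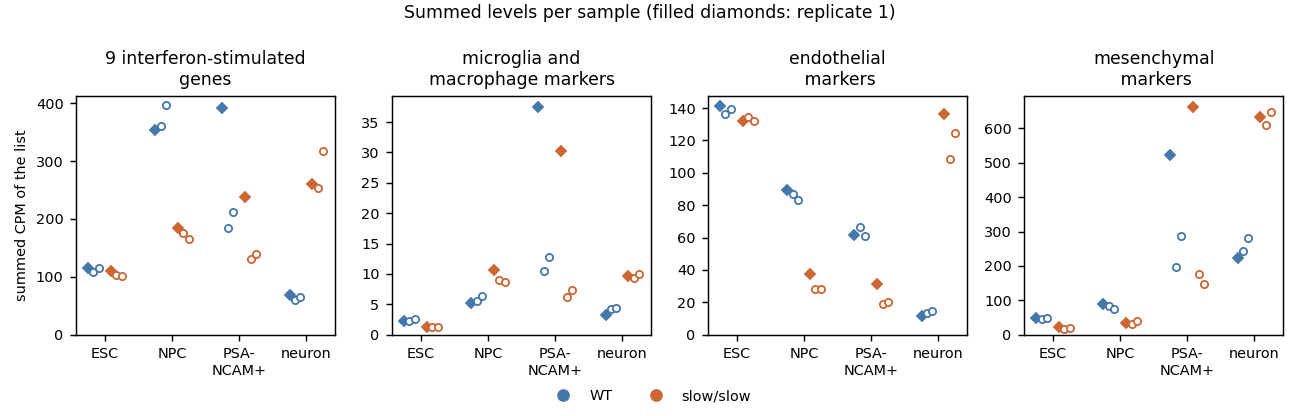
Summed CPM per sample of the 9 interferon-stimulated genes and of 3 marker lists, with WT in blue, slow/slow in orange and replicate 1 as filled diamonds. Replicate 1 of the PSA-NCAM+ cells has the highest sum of its group for the 9 genes, the microglia and macrophage markers and the mesenchymal markers. Its microglia and macrophage sum rests mostly on Csf1r, and its mesenchymal sum mostly on Col1a2 and Col1a1. The endothelial sum of slow/slow neurons is 109 to 136 CPM against 11.5 to 14.4 CPM in WT neurons.

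Whether the counts could come from other genes was checked against the annotation (GENCODE M21, GRCm38). Rtp4 (chr16:23520291-23614222, plus strand) overlaps the start of Masp1 by 525 bases on the other strand, and Masp1 moved the other way in neurons, from 19.9 to 8.11 CPM. Irf9 (chr14:55603571-55610030, plus strand) overlaps Rnf31 by 123 bases on the same strand, and Rnf31 went from 30.5 to 39.5 CPM. Irf7 (chr7:141262706-141266481, minus strand) overlaps Phrf1 by 45 bases on the other strand, and Phrf1 had 128 and 126 CPM. Ifit1bl2, within 2000 bases of Ifit1, was near 0.1 CPM in WT neurons and 0.172 CPM in slow/slow neurons. Agrn near Isg15 and Apof near Stat2 did not pass in neurons (FDR = 0.055 and 0.25).

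Sequence shared with other genes was small for most members. Of the 50-base stretches of the Ifit3 transcripts, 51.2% also occur in Ifit3b, so the counts of these 2 genes are uncertain. For Rtp4 the share was 11.6%, with an overlapping non-coding transcript, and for Ifit1 7.13%, nearly all with Ifit1bl2. The other 6 genes shared under 4% each. Positions of the remaining genes are chr19:34640871-34650009 for Ifit1, chr19:34583531-34588731 for Ifit3, chr4:156199424-156200818 for Isg15, chr10:128270559-128292849 for Stat2, chr5:114896936-114912234 for Oasl2 and chr8:71534255-71537456 for Bst2.

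Reads over exon-exon junctions, which the authors counted with vast-tools for splicing, gave a second readout that unspliced RNA cannot enter. They come from the same libraries, so they are no independent replicate. Over the single intron of Rtp4, WT neurons had 1, 0 and 0 spliced reads and slow/slow neurons 138, 178 and 82. Ifit1 had 0 in all WT neuron libraries and 39, 62 and 31 in slow/slow libraries, and Isg15 had 6, 3 and 6 against 260, 334 and 180. The junction of Ifit3 held no read in any library.

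For Irf7 the share of unspliced reads varied among the groups. Over its 9 introns WT neurons held 14 spliced reads and 109 reads across exon-intron boundaries in all 3 libraries, and slow/slow neurons 474 and 72. Per 1000000 gene counts its spliced reads averaged 0.0591 in WT and 2.70 in slow/slow neurons. The log2 change of 3.65 in its gene counts need therefore not be that of its spliced RNA. Unspliced molecules, taken as the mean of both boundaries, made up 79.6% in WT and 7.06% in slow/slow neurons. In WT NPCs the same share was 25.4%, over 47 spliced reads, and in slow/slow NPCs 33.3%, over 12. In PSA-NCAM+ cells the share was also lower in WT, at 27.55% over 288 spliced reads, than in slow/slow cells, at 57.1% over 42. ESCs had 66.7% in WT and 73.3% in slow/slow cells, over only 4 and 2 spliced reads. The order of the genotypes in neurons was thus not that of the other stages, and its cause was not tested.

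**Figure D5:**
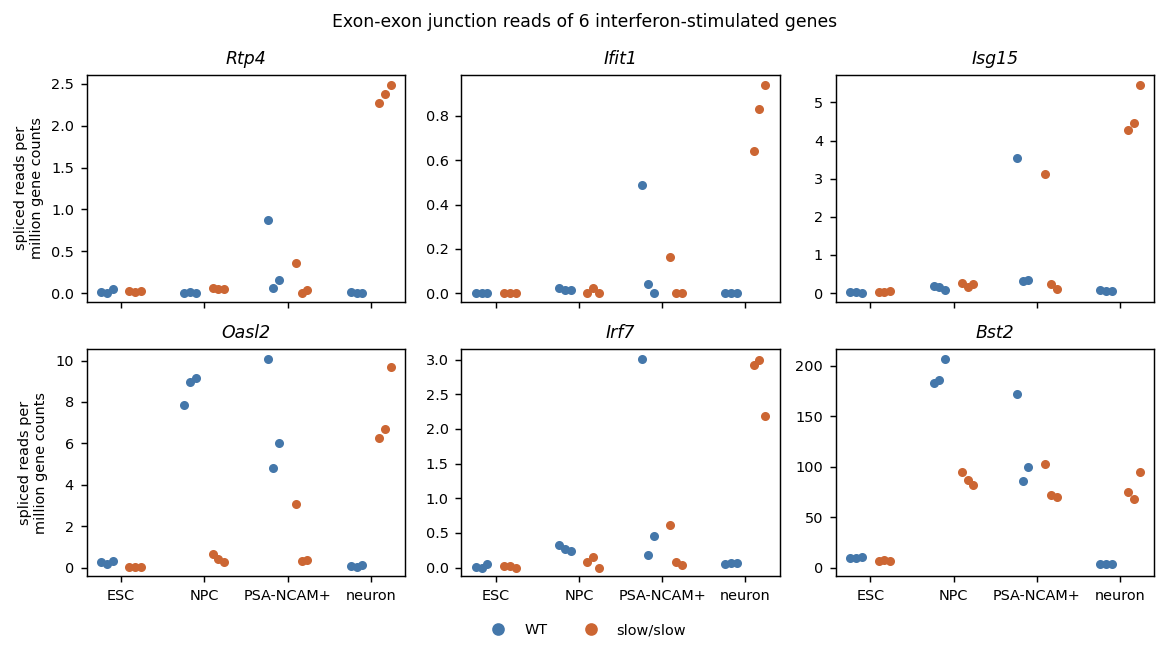
Reads over exon-exon junctions per 1000000 gene counts in each sample for 6 of the genes, with WT in blue and slow/slow in orange. Slow/slow neurons lie above WT neurons in all 6 panels, as they do in the gene counts, and Bst2 is highest in WT NPCs, at 183 to 206 reads.

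Exon inclusion (percent spliced in, PSI) could be read in Stat2, Bst2 and Irf9, at 15 reads or more in each of the 6 samples compared. The 6 exons of Stat2 and Bst2 differed by at most 5.31 PSI points between genotypes at any stage. An 86-base exon of Irf9 (chr14:56223305-56223390, mm9) was included less in slow/slow neurons and PSA-NCAM+ cells, with no overlap between genotypes. In neurons it had 32.0, 32.0 and 20.2 PSI in WT and 16.1, 10.1 and 8.74 PSI in slow/slow libraries, a difference of -16.4 points. In PSA-NCAM+ cells it had 31.2, 31.4 and 31.0 PSI in WT and 23.7, 19.4 and 11.8 PSI in slow/slow libraries, a difference of -12.9 points, and in ESCs the difference was -6.12 points with overlapping samples. In NPCs its coverage was too low. This exon was named after its values were seen, so no test is given, and 3 samples against 3 could not go below an exact permutation p of 0.1.

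Across the 24 samples the levels of some members followed each other closely. Pearson's r of log2(CPM + 0.5) between Rtp4 and the others was 0.98 for Ifit1, 0.96 for Ifit3, 0.96 for Isg15 and 0.94 for Irf7. It was 0.75 for Irf9, 0.66 for Oasl2, 0.42 for Bst2 and 0.09 for Stat2. Over the 18 samples without neurons the first 4 values were 0.98, 0.98, 0.95 and 0.93, where both replicate 1 libraries of the PSA-NCAM+ cells stand out, and Irf9 dropped to 0.42. Oasl2 and Bst2 followed each other with r = 0.80 with and without neurons. These values describe samples that share stages, cultures and scaling.

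Of the 16618 other genes tested, the 5 most like Rtp4 by the same measure were Mx2 (r = 0.98), I830012O16Rik (0.96), Ctla2b (0.96), Heyl (0.95) and Usp18 (0.95). I830012O16Rik is the gene now named Ifit3b. It had 0.0169 CPM on average in WT neurons and 0.634 CPM in slow/slow neurons, and Heyl had 0.543 and 27.2 CPM. The 5 genes most like the mean of the other 8 members were Oas1b (r = 0.97), Ifi47 (0.96), Mx2 (0.96), Usp18 (0.94) and Trim30a (0.94). Mx2 had means of 2.12 CPM in WT PSA-NCAM+ cells, 0.742 CPM in slow/slow PSA-NCAM+ cells, 0.185 CPM in WT neurons and 7.59 CPM in slow/slow neurons.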

How the data were processed

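RNA was sequenced from 24 samples, in 8 groups of 3 taken from the labels. The authors deposited whole-number read counts per gene from vast-tools (reads mapped to mm9), their mean RPKM values per group, which are used only to compare levels between genes, and PSI percent values per splicing event with vast-tools quality scores and read numbers. Whether counting used the strand is not given in the sources used here. The authors' deposited log2 fold changes and FDR values were not used, nor was their table of called splicing events, and 0 per-sample columns were left unused. The submitters' processing notes name bcl2fastq 2.17.1.14 and edgeR.

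The members and gene lists were chosen with earlier results of these data known. Of 22667 genes, 1114 had no values and 19745 had counts. Genes were filtered with filterByExpr (CPM of 0.163 or more in at least 3 samples), which left 16627, including all 9 members. Ifit3 passed through slow/slow neurons alone among the groups and Ifit1 through 3 of the 8. Libraries were scaled by TMM and tested in 1 model of 8 groups with edgeR 4.0.16 (glmQLFit and glmQLFTest, R 4.3.3), with 16 residual degrees of freedom and a common coefficient of variation of 0.164. Standard errors were derived from the F statistic. Scripts were tested on simulated data. Intervals cover counting error only. The study describes 3 independent differentiations. Same-numbered samples deviated together at the PSA-NCAM+ stage (r = 0.54, 0.46 and 0.40) and not at the other stages, where r lay between -0.084 and 0.068. At the PSA-NCAM+ stage the highest r with a sample of another number was -0.44, 0.399 and 0.241 for replicates 1, 2 and 3. DESeq2 1.42.0, other scalings and filters, the replicate block and leaving out samples were tried as alternatives. Named pathway genes were, per stage, the 5 largest rises and 5 largest falls past the FDR with no overlap between genotypes, plus the receptors, Jak1, Tyk2, Usp18 and Socs1. 1 further gene of that rule is not reported here. Csf1r, Tmem119 and the other markers were named after their values were seen.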

Additional observations from a re-analysis of the deposited data

Results flagged for a closer look

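For several genes slow/slow and WT levels lay in one order before the neuron stage and in the other order in neurons, with every slow/slow sample on one side of every WT sample at both stages. These reversals were not tested, because the neuron values chose the members, and some single differences did not pass the FDR of 0.05, namely Irf7 and Irf9 in NPCs (FDR = 0.090 and 0.31), Bst2 in ESCs (0.053), Oas1b in ESCs (0.39), and Mx2 and Usp18 in NPCs (0.36 and 0.15) by edgeR. In NPCs the log2 changes were -0.75 for Stat2, -1.62 for Irf7, -0.36 for Irf9, -4.14 for Oasl2 and -1.07 for Bst2, and in neurons they were 0.37, 3.65, 1.92, 6.09 and 4.23. In ESCs Oasl2 had -2.62 and Bst2 -0.51, and in PSA-NCAM+ cells Oasl2 had -2.42.

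Named pathway genes showed such reversals too. They were named for being among the largest rises or falls in neurons, so the neuron side was fixed by the choice. The share of all genes with such a reversal was not counted. Sp100 had log2 changes of -3.72 in ESCs, -2.08 in NPCs and -2.72 in PSA-NCAM+ cells against 6.16 in neurons. Oas1b had -0.66 in ESCs and -1.77 in NPCs against 5.52 in neurons. In NPCs Mx2 had -1.36 and Usp18 -1.77. Adar ran the other way, with 0.20 in ESCs, 0.45 in NPCs and 0.41 in PSA-NCAM+ cells against -0.66 in neurons.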

How the results depend on the processing

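The counts below are of genes past the FDR of 0.05. In ESCs 2 members were called in place of 1 with upper-quartile scaling, DESeq2 or only the samples compared, Bst2 being added. Only the samples compared gave 65 pathway genes in ESCs in place of 42, 5 members in NPCs in place of 3, 0 members and 26 pathway genes in PSA-NCAM+ cells in place of 5 and 64, 7 members from ESCs to NPCs in WT cells in place of 4, 4 from ESCs to PSA-NCAM+ cells in slow/slow cells in place of 9 (with 5 tested), and 5 in the NPC interaction in place of 0. Requiring an absolute log2 change above 1 left 23 pathway genes in ESCs, 38 in NPCs, and 2 members and 40 pathway genes in PSA-NCAM+ cells. Leaving out both PSA-NCAM+ libraries numbered 1, a choice made after seeing the data, gave 8 members and 3 in the interaction. The cause of these shifts was not tested.

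Leaving out 1 library at a time gave 0 to 1 members in ESCs, 1 to 9 members and 54 to 97 pathway genes in PSA-NCAM+ cells, 5 to 8 members from ESCs to PSA-NCAM+ cells in slow/slow cells, and 0 to 3 in their interaction. No member turned direction past the threshold. With the replicate number as a block 1, 4 and 5 members were called in ESCs, NPCs and PSA-NCAM+ cells, with 43, 70 and 69 pathway genes there and 90 in neurons, and 1 in the NPC interaction. Outside the PSA-NCAM+ stage the samples share only a number. Genes with a few counts per library limit what can be seen in ESCs.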
